A study of Mus musculus with 11 samples.

Results

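The genes described here are 9 regulators of developmental timing, chosen by name from the 13498 genes of a count table of mouse retina, and all 9 were found in it. Lin28b, Hmga2, Igf2bp1, Igf2bp2 and Igf2bp3 stand for the early phase of neural progenitor competence, and Nfia, Nfib, Nfix and Casz1 for the late phase. Total RNA of retinas from NMRI mouse embryos at E13.5 was sequenced after removal of ribosomal RNA, with 11 libraries in 4 genotypes. Controls (WT, n = 3) were Six3F/F; Six6+/+, with both copies of Six3 floxed and no Cre. Six3KO embryos (n = 3) were Six3F/F; CAGGCre-ERTM; Six6+/+, Six6KO embryos (n = 2) were Six3F/F; Six6–/– without Cre, and double mutants (DKO, n = 3) were Six3F/F; CAGGCre-ERTM; Six6–/–. All 4 groups thus carried floxed Six3, and tamoxifen was given to all dams on 2 days, E10.5 and then E11.5. The tamoxifen-activated CAGGCre-ERTM is driven by a broadly active promoter, so Six3 loss is not limited to the retina, and Six3 loss cannot be told apart from the presence of Cre in the Six3KO and DKO groups. Each sample was a pair of retinas, stated to be a biological replicate, and 1 Six6KO sample had been removed by the submitters.

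Retinal progenitors make their cell types in a set order, and their competence to do so shifts from early-born types such as ganglion cells to late-born types such as bipolar cells and Müller glia. LIN28 proteins bind precursors of let-7 microRNAs and block their maturation, and let-7 in turn represses Lin28b, Hmga2 and the Igf2bp genes, so that the early genes and let-7 oppose each other. The NFI transcription factors promote the exit from proliferation and the late fates, gliogenesis among them, and CASZ1 is a zinc finger factor that favours late-born neurons over glia. NFI genes are also active in mesenchyme and other tissues outside the retina, a property that bears on dissected tissue.

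The sequences that tie the early genes together are the let-7 seed (bases 2 to 8 of the mature microRNA, in capitals) and its match in their 3′ UTRs. RefSeq (GRCm38.p6) gave 10 distinct mature let-7 forms from 12 loci with 1 shared seed, of which 4 are shown, and let-7j, whose seed differs in its last base, is shown beside them. The 2 other microRNAs shown, miR-9 and miR-125b, are textbook partners of let-7 in the switch from early to late retinal competence.

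let-7a-5p: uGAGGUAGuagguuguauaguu
let-7b-5p: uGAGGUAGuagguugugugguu
let-7g-5p: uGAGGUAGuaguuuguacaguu
miR-98-5p: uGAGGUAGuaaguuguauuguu
let-7j: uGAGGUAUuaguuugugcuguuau
miR-9-5p: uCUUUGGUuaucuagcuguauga
miR-125b-5p: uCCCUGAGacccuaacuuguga

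The 7-base match to the let-7 seed, CTACCTC, was searched on the sense strand of the longest annotated 3′ UTR of each gene (GENCODE vM21, GRCm38). It was present 4 times each in Lin28b, Hmga2 and Igf2bp1, and once each in Igf2bp2, Igf2bp3 and Nfia. It was not found in these windows for Nfib, Nfix or Casz1. Among 12480 tested genes with such a 3′ UTR, 10.7% held the match at least once and 0.08% at least 4 times. The genes with a match also had longer 3′ UTRs, with a median of 2462 bases against 1130 in those without. The sites below, with the match in capitals, are 1 from each of the 6 genes that hold it, the first along the 3′ UTR, and they show the shared letters and the differing bases around them. An A after the match, a letter that strengthens such pairing sites, followed 7 of the 14 matches in the early genes (1 of 4 in Lin28b, 1 of 4 in Hmga2, 3 of 4 in Igf2bp1, and the single matches of Igf2bp2 and Igf2bp3) and not the 1 match in Nfia.

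Lin28b: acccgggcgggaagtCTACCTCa
Hmga2: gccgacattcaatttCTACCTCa
Igf2bp1: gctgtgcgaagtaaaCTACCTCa
Igf2bp2: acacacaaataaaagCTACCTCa
Igf2bp3: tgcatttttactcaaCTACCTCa
Nfia: gatacaggagaagtgCTACCTCt

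The matches to the other seeds were spread over both sets of genes. The miR-9 match, ACCAAAG, occurred 4 times in Lin28b, once each in Hmga2, Igf2bp2, Igf2bp3, Nfia and Nfib, and in 14.5% of genes. The miR-125 match, CTCAGGG, occurred 3 times in Casz1, once each in Lin28b, Igf2bp3 and Nfib, and in 15.7% of genes. Letters alone do not show a site in use. The 1337 genes with a let-7 match had a median log2 fold change of 0.01 in DKO against WT, beside -0.01 in the 11143 genes without one.

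Depth ranged from 7807744 to 16403191 counted reads per library. Six6 was lower in DKO than in WT (log2 fold change -2.01 ± 0.36 SE, adjusted p = 0.0342, edgeR), and all DKO and Six6KO libraries (52.8 to 131 CPM) lay below all WT libraries (225 to 340 CPM). For Six3, all DKO and Six3KO libraries (30.3 to 98.2 CPM) lay below all WT libraries (164 to 299 CPM), although the DKO difference did not pass the test (-1.70 ± 0.43, adjusted p = 0.106). Retinal progenitor markers (9 of 9 in the table) and ganglion cell markers (13 of 13) were above 0 in every group. In DKO against WT their median log2 differences were -0.53 and -0.71, and those of the 8 macrophage and microglia markers 1.36, with 1 of all 30 called (a ganglion cell marker, lower). Markers of tissue around the retina differed widely within groups, the 14 lens markers summing to between 8.72 and 20124 CPM. The part of these markers in the values below was not tested, and only 3 of their scores were used as covariates in further fits. Periocular mesenchyme markers, 24 of 25 in the table and none at 0 in any group, summed to between 970 and 3489 CPM in WT, 1021 and 6481 CPM in Six3KO, 2693 and 4411 CPM in Six6KO, and 599 and 676 CPM in DKO. Libraries are named below as in the table (rh and a number), and CPM is a gene's reads scaled to a common library total, with trimmed mean of M values (TMM) factors.

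None of the 9 timing regulators passed the test in DKO against WT, where 1.29% of 13292 tested genes did (172 genes, 87 higher and 85 lower, at an adjusted p under 0.05 by edgeR's quasi-likelihood test). At an unadjusted p under 0.05, 1 member (Lin28b) passed beside 13% of all genes. The nearest to a call was Lin28b, 1.47-fold higher in DKO. Igf2bp3 was 1.22-fold higher, Hmga2, Igf2bp1 and Igf2bp2 were within 1.11-fold of WT, and the late genes had lower means with wide errors. The median log2 fold change was -0.05 over the 5 early genes and -0.90 over the 4 late genes, beside -0.004 over all genes tested.

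**Figure D1:**
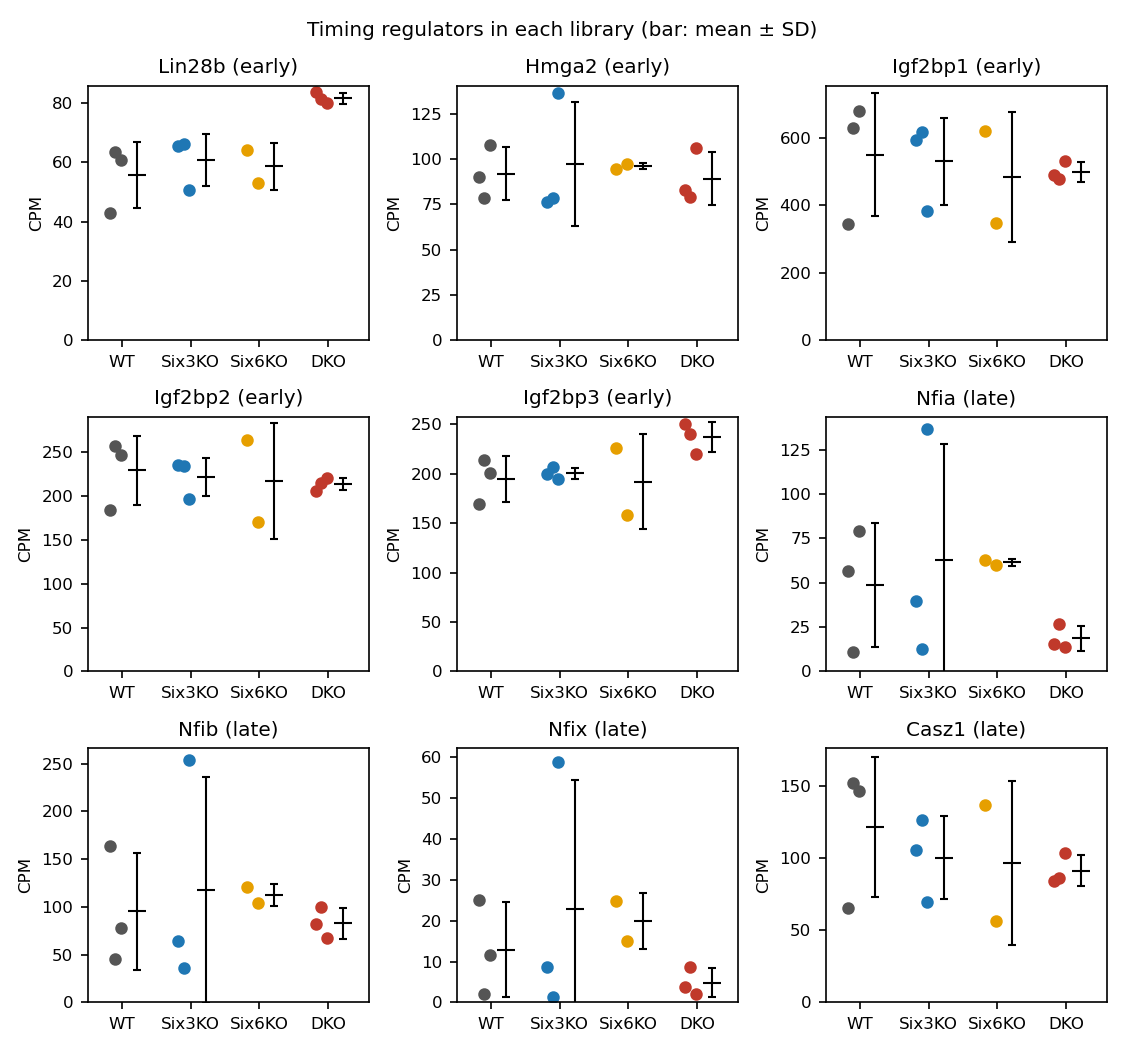
Level of each timing regulator (vertical axis, CPM from 0) in the 11 libraries, by genotype, with the mean ± SD at the right of each group (n = 3, and 2 for Six6KO). The SD bars of Nfia, Nfib and Nfix in Six3KO run below 0 and end at the axis. The 3 DKO libraries of Lin28b sit together at about 80 CPM above every other library, while Nfia, Nfib and Nfix scatter widely in WT and Six3KO.

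Lin28b, the RNA-binding protein that holds let-7 down, stood at 83.7, 81.2 and 79.9 CPM in the 3 DKO libraries (rh010, rh011 and rh021), from 1021, 981 and 1008 reads. In WT it was at 43.0, 63.4 and 60.7 CPM in rh016, rh023 and rh024. Six3KO had 65.6, 66.0 and 50.7 CPM (rh006, rh012, rh026), and Six6KO 64.3 and 53.1 CPM (rh007, rh020). All 3 DKO libraries were above all 8 others, a property that 4.21% of tested genes shared, and the single mutants overlapped with WT. The DKO mean was 81.6 ± 1.91 CPM (SD, n = 3) against 55.7 ± 11.1 CPM (SD, n = 3) in WT. The log2 fold change was 0.55 ± 0.16 (SE), with a 95% interval of 0.19 to 0.92, an unadjusted p of 0.00716 and an adjusted p of 0.150 (edgeR). Against Six3KO the log2 difference was 0.42 ± 0.16 (adjusted p = 0.292, edgeR) and against Six6KO it was 0.48 ± 0.18 (adjusted p = 0.280, edgeR), so no comparison of DKO passed the threshold. These comparisons share the DKO libraries. In the single mutants against WT, Lin28b differed by 0.13 ± 0.16 (Six3KO) and 0.08 ± 0.18 (Six6KO). The distance of the DKO value from the added effects of both single mutants was 0.35 ± 0.25 (adjusted p = 0.706, edgeR), which does not show a level beyond that sum. Without WT library rh016, the lowest of the 11, the difference from WT was 0.40, and with the mesenchyme score described below as a covariate it was 0.28 ± 0.19 (adjusted p = 0.551, edgeR). With an endothelial or a pigment epithelium score in its place it was 0.48 ± 0.14 in both fits (adjusted p = 0.0834 and 0.110, edgeR). DESeq2 called it, with an adjusted p of 0.0331 at 0.56. DESeq2 also called more genes in all, 310 higher and 463 lower in DKO against WT, beside 87 and 85 by edgeR.

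Igf2bp3, one of 3 related proteins that bind and stabilise mRNAs in embryonic cells, had 250.3, 240.2 and 221 CPM in DKO. The WT libraries held 169.5, 214 and 201 CPM, Six3KO 200.1, 207 and 195 CPM, and Six6KO 226 and 158 CPM. DKO thus did not overlap with WT or Six3KO, but Six6KO library rh007 lay within the DKO range. Together with Lin28b, 2 of the 9 members were higher in DKO without overlap with WT, beside 9.03% of all genes, and the same 2 did not overlap with Six3KO, beside 13.4%. The DKO difference of Igf2bp3 from WT was 0.28 ± 0.14 on the log2 scale, with a 95% interval of -0.03 to 0.59 (adjusted p = 0.448, edgeR). Of the exon bases of Igf2bp3, 18.7% overlap with Malsu1 on the other strand, and with no strand setting known for the counts, reads of the 2 genes there cannot be told apart. No other member shared more than 2.07% of its exon bases with another gene.

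Igf2bp1, the family member with the highest level, had 488, 476 and 532 CPM in DKO. In WT it was at 343, 628 and 679 CPM, in Six3KO at 592, 617 and 382 CPM, and in Six6KO at 620 and 348 CPM. The DKO libraries lay in the middle of the range of the others, 5 of which were above all of them. Igf2bp2 also had its DKO libraries inside the range of the others, with 206, 215 and 220 CPM in DKO against 184, 258 and 246 CPM in WT, 235, 234 and 197 CPM in Six3KO, and 264 and 171 CPM in Six6KO. The DKO differences from WT were -0.14 ± 0.29 for Igf2bp1 (95% interval -0.80 to 0.52) and -0.10 ± 0.18 for Igf2bp2 (95% interval -0.49 to 0.29) on the log2 scale. These intervals leave room for changes of either sign.

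Hmga2, a chromatin protein of embryonic and self-renewing cells, had 82.7, 78.8 and 106 CPM in DKO and 90.3, 78.3 and 108 CPM in WT. Six3KO held 76.3, 78.4 and 137 CPM, and Six6KO 94.8 and 97.3 CPM. All groups overlapped, and the highest library was Six3KO rh026. The difference of DKO from WT was -0.05 ± 0.23 (95% interval -0.55 to 0.46, adjusted p = 0.978, edgeR).

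**Figure D2:**
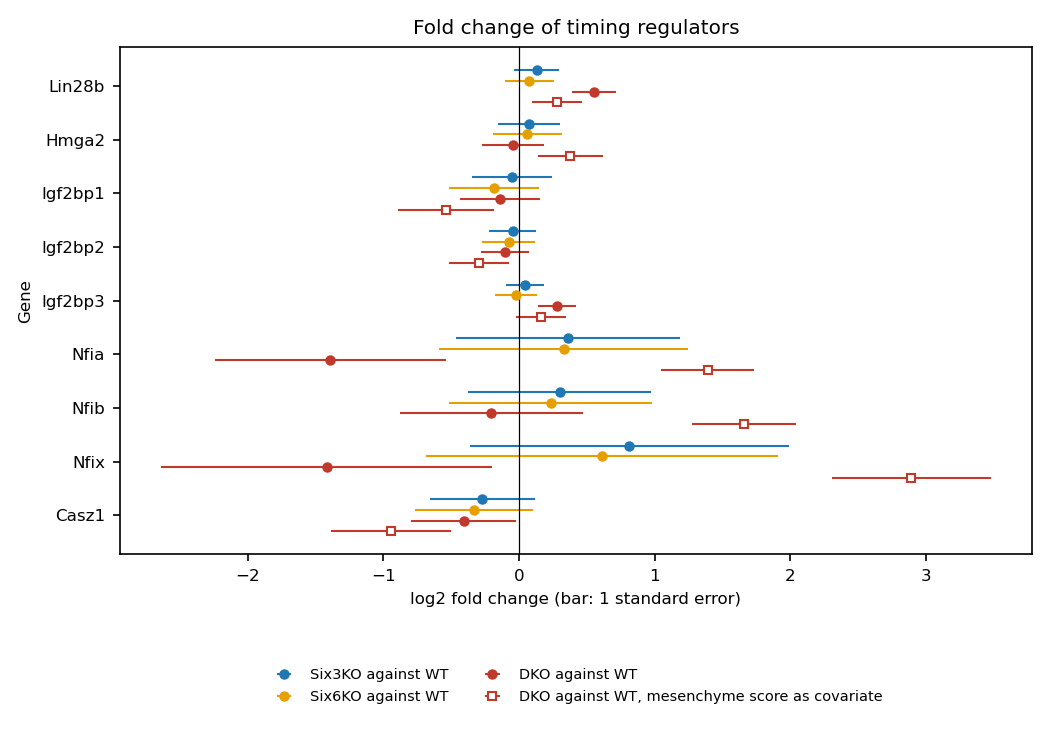
Differences from WT on the log2 scale (horizontal axis, with bars of 1 SE) of the 9 genes in Six3KO, Six6KO and DKO, and in DKO with the mesenchyme score as a covariate (open squares). The bars are short for the 5 early genes and long for Nfia, Nfib and Nfix, whose DKO values move from below 0 to above 0 with the covariate.

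Among the late genes, Nfia had 15.7, 26.8 and 13.48 CPM in DKO and 56.8, 10.8 and 79.1 CPM in WT. Six3KO spread from 12.9 CPM (rh012) through 39.7 CPM (rh006) to 136 CPM (rh026), and Six6KO held 62.8 and 60.1 CPM. WT library rh023 and Six3KO library rh012 lay below all 3 DKO libraries, and the other 6 lay above them. The log2 difference of DKO from WT was -1.39 ± 0.85, with a 95% interval of -3.31 to 0.53 (adjusted p = 0.587, edgeR).

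Nfib was the most abundant of the 3 NFI genes, with 82.3, 99.7 and 67.3 CPM in DKO and 164, 44.98 and 77.7 CPM in WT. In Six3KO it was at 64.3, 36.2 and 254 CPM, and in Six6KO at 121 and 104 CPM. DKO overlapped with WT and Six3KO, and the difference from WT was -0.20 ± 0.67 on the log2 scale (adjusted p = 0.964, edgeR). Nfix, the lowest of the 9 genes, had 3.69, 8.78 and 2.14 CPM in DKO, 25.2, 1.97 and 11.6 CPM in WT, 8.76, 1.25 and 58.9 CPM in Six3KO, and 24.8 and 15.1 CPM in Six6KO. It rested on as few as 13 reads in a library and spanned 47.2-fold over the 11 libraries, beside 12.7-fold for Nfia, 7.01-fold for Nfib and 1.95-fold for Lin28b. Its difference from WT in DKO was -1.42 ± 1.22 (adjusted p = 0.739, edgeR).

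Against Six6KO, whose 2 libraries were close for Nfia and Nfib, Nfia, Nfib and Nfix were lower in all 3 DKO libraries. Such separation downward was found for 18.6% of all genes in that comparison, and with 2 libraries it is common. The differences were -1.72 ± 0.92, -0.44 ± 0.75 and -2.03 ± 1.32, and none passed the test. A fit on DKO and Six6KO alone called Nfia (adjusted p = 0.0233, edgeR), and over all genes it called 149 higher and 533 lower. The mesenchyme covariate described below turned the 3 values to 1.56, 1.88 and 2.87. With all 11 libraries in 1 fit, no member passed in DKO against Six3KO either, where 0.587% of genes did, or in DKO against Six6KO, where 0.233% did.

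The NFI levels went with several scores of tissue around the retina, among them the periocular mesenchyme score, the mean log2 CPM of the 24 mesenchyme markers minus the WT mean. That score was 1.19, -1.88 and 0.70 in WT, 0.31, -1.52 and 1.83 in Six3KO, 1.01 and 0.79 in Six6KO, and -2.91, -2.11 and -2.55 in DKO. The 5 libraries with the lowest score, namely all of DKO, WT rh023 and Six3KO rh012, were also the 5 lowest in Nfia, and 4 of them were among the 5 lowest in Nfix and 3 in Nfib. The same 5 libraries were lowest in the endothelial score (10 markers) and the pigment epithelium score (7 of 8 markers in the table), with none of these markers at 0 in any group. There the 3 lowest libraries were also the 3 lowest in Nfia and Nfix and held 2 of the 3 lowest in Nfib, beside 1, 1 and 0 for mesenchyme. In Six3KO rh026, with the highest score, all 3 NFI genes had their highest level. In bulk tissue, fewer cells of a type and less RNA per cell cannot be told apart, and these 3 scores shared their 5 lowest libraries. The surface ectoderm score (10 markers), not used as a covariate, had the same 5 lowest libraries.

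The 2 other libraries of low mesenchyme score had lower NFI levels than DKO. WT rh023 and Six3KO rh012 held 10.8 and 12.9 CPM of Nfia, 44.98 and 36.2 CPM of Nfib, and 1.97 and 1.25 CPM of Nfix. All 3 DKO libraries were above both of them for each of the 3 genes, by the values given above. These libraries were singled out after their values were seen, and no test was made on them. They are not matched to DKO in other scores. WT rh023 and Six3KO rh012 had lower endothelial scores (-2.48 and -2.10) and pigment epithelium scores (-2.86 and -3.77) than any DKO library. Nfix rested on 17 and 13 reads in them. With the mesenchyme score as a covariate across all libraries, the log2 differences of DKO from WT turned to 1.39 ± 0.34 for Nfia (adjusted p = 0.0804, edgeR), 1.66 ± 0.38 for Nfib (adjusted p = 0.0670, edgeR) and 2.89 ± 0.58 for Nfix (adjusted p = 0.0425, edgeR). Over all genes, that fit called 136 higher and 97 lower. The DKO mesenchyme scores lie outside the range of the other groups, so this covariate carries a trend beyond their values. The endothelial scores of DKO (-1.29 to -0.62) lie inside the range of WT (-2.48 to 1.36), and so do its pigment epithelium scores (-2.37 to -0.80, beside -2.86 to 1.98 in WT). By summed CPM, however, the endothelial markers of DKO (118 to 123 CPM) lay below all WT libraries (190 to 365 CPM). The summed pigment epithelium markers of DKO (99.7 to 341 CPM) stayed inside the WT range (50.3 to 1604 CPM). With the endothelial score, chosen as a covariate after seeing the data, the differences were -0.33 ± 0.30 for Nfia, 0.38 ± 0.36 for Nfib and 0.22 ± 0.67 for Nfix. With the pigment epithelium score they were -0.37 ± 0.44, 0.47 ± 0.40 and 0.21 ± 0.71, and no member was called in either fit. The size and direction of the NFI differences in DKO thus depended on the covariate.

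**Figure D3:**
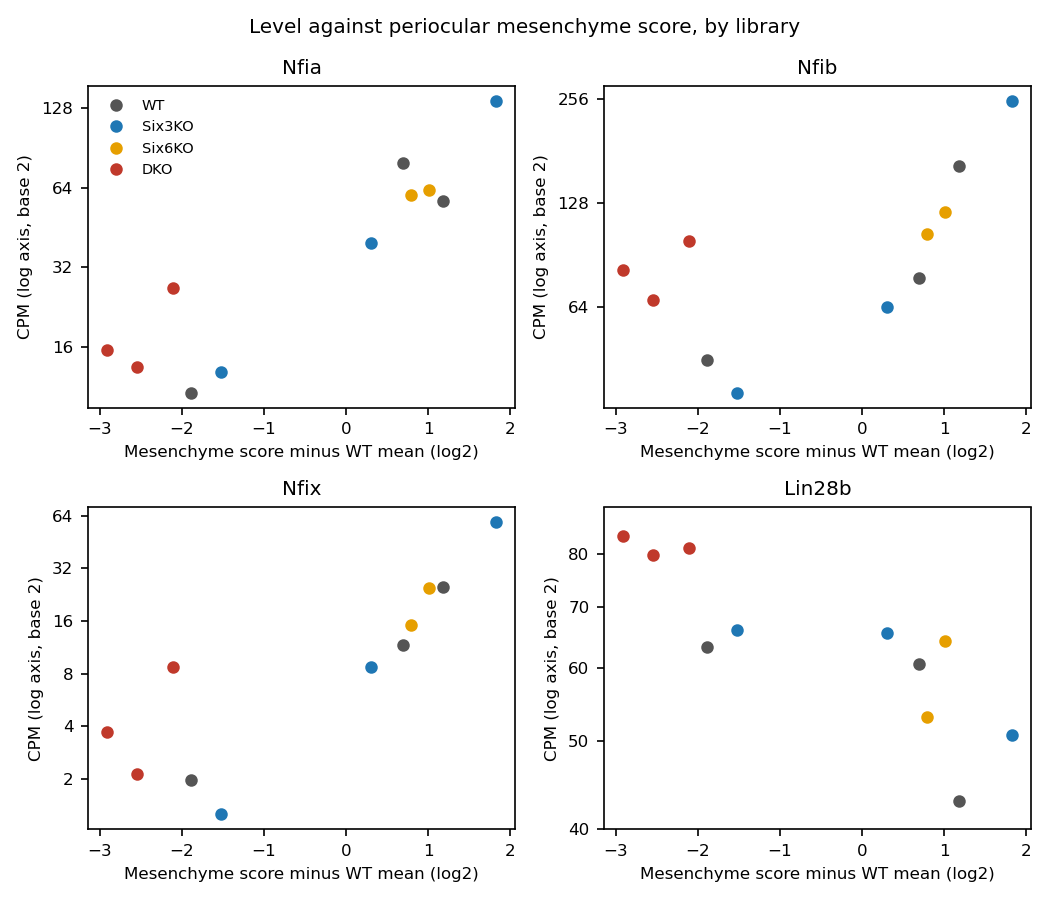
Level of Nfia, Nfib, Nfix and Lin28b (vertical axis, CPM on a log axis) against the periocular mesenchyme score (horizontal axis, log2 units relative to the WT mean), 1 point per library, coloured by genotype. The NFI genes climb with the score from WT rh023 and Six3KO rh012 to Six3KO rh026, the 3 DKO points lie at scores from -2.91 to -2.11, and the DKO points of Lin28b lie above all others.

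Casz1, listed with the late genes, had 83.8, 86.5 and 104 CPM in DKO and 65.6, 152 and 146 CPM in WT. Six3KO held 105, 127 and 69.3 CPM, and Six6KO 137 and 56.4 CPM. The DKO libraries fell inside the range of WT, with a difference of -0.41 ± 0.39 on the log2 scale (95% interval -1.28 to 0.46, adjusted p = 0.770, edgeR). Its lowest 3 libraries were WT rh016, Six3KO rh026 and Six6KO rh020. The same 3 were lowest for Lin28b, Igf2bp1, Igf2bp2 and Igf2bp3, and they had the 3 highest scores for pigment epithelium (1.97 to 2.07 above the WT mean), endothelial and surface ectoderm markers alike. With the endothelial or the pigment epithelium score as a covariate, Casz1 differed between DKO and WT by -0.58 ± 0.32 and -0.61 ± 0.31, and was not called. Over the 9 alternatives other than leave-one-out fits, the mesenchyme covariate among them, the difference ran from -0.95 to -0.40, with no call.

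Neither single mutant moved any of the 9 genes past the test. The test did not call the targeted genes in these comparisons either. Six3 differed by -1.93 ± 0.43 in Six3KO (adjusted p = 0.9999, edgeR) and Six6 by -1.43 ± 0.40 in Six6KO (adjusted p = 0.991, edgeR). The absence of a call there thus does not show an unchanged level. Among the 9 genes, the log2 differences in Six3KO against WT ran from -0.27 ± 0.39 (Casz1) to 0.81 ± 1.18 (Nfix), and 0.00752% of all genes were called (1 gene, 465 at an unadjusted p under 0.05, and 18 by DESeq2). In Six6KO against WT they ran from -0.33 ± 0.44 (Casz1) to 0.61 ± 1.30 (Nfix), and 0% of genes were called by edgeR (518 at an unadjusted p under 0.05, and 2 by DESeq2). The 3 NFI genes had positive differences in both single mutants and negative ones in DKO, with intervals that include 0 throughout. For the distance of DKO from the added single-mutant effects, edgeR called 0% of genes (1328 at an unadjusted p under 0.05, and 241 by DESeq2) and no member. The NFI distances were -2.08 ± 1.24 for Nfia, -0.74 ± 1.01 for Nfib and -2.85 ± 1.77 for Nfix.

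Over the 11 libraries the 9 genes did not split into the early and late sets. Casz1 went with Igf2bp1 and Igf2bp2 (Pearson r of log2 CPM of 0.97 with each) and against Nfia, Nfib and Nfix (r from -0.64 to -0.38). The NFI genes went together (r of 0.95 for Nfia and Nfix, 0.92 for Nfib and Nfix, 0.80 for Nfia and Nfib), as did Igf2bp1 and Igf2bp2 (0.95) and Lin28b and Igf2bp3 (0.86). Hmga2, an early gene by its label, had r of 0.59 to 0.66 with the NFI genes and -0.39 to -0.27 with the other early genes. These values are descriptions over 11 libraries of 4 genotypes that also differ in depth and in markers of neighbouring tissue, so they carry no test.

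**Figure D4:**
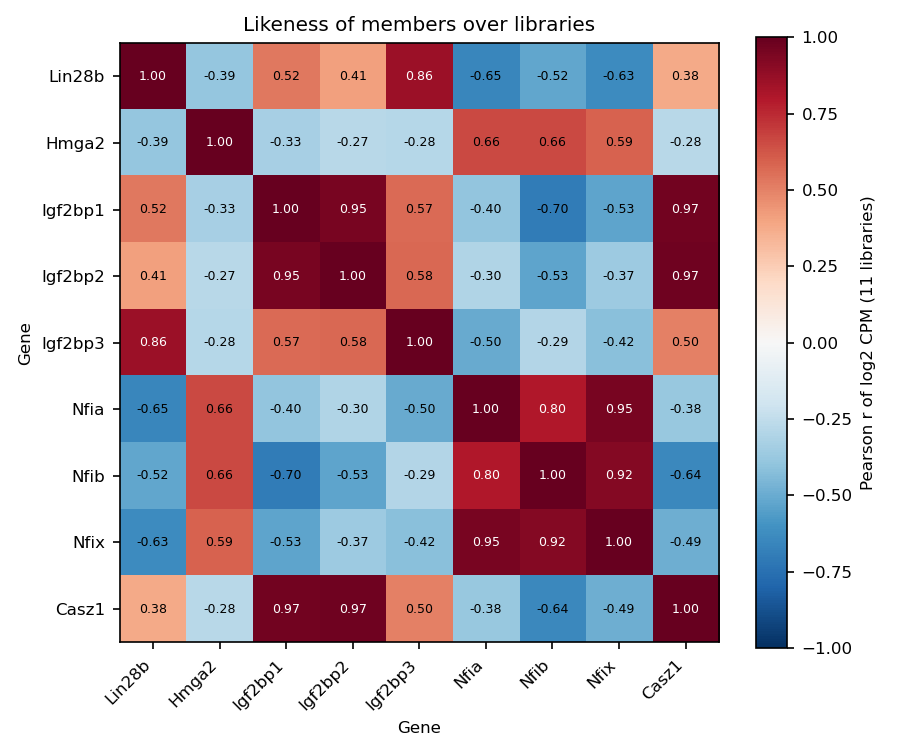
Pearson r of log2 CPM over the 11 libraries for each pair of the 9 genes (both axes list the genes, and the colour runs from -1 in blue to 1 in red). Casz1 sits with Igf2bp1 and Igf2bp2 at 0.97, and Hmga2 with the NFI genes at 0.59 to 0.66.

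Among 11215 genes, the patterns nearest to Lin28b over these libraries were those of Zic2, a zinc finger factor of the neural tube and retina, and Ptprn2 (r of 0.97 each). Nfia was most like Elk3 and Daam2 (0.98 each), Nfib most like Ccnd2 (0.96) and Fbn1 (0.95), a matrix gene that is itself on the mesenchyme list, and Nfix most like Smoc2 (0.98) and Igsf10 (0.97). Casz1 was most like Mdc1 and Klf13 (0.98 each). Igf2bp1 was most like Prdm2 and Brd1 (0.98 each), Igf2bp2 most like Ssbp3 and Eif4ebp2 (0.98 each), Igf2bp3 most like Ctbp2 and Sipa1l1 (0.97 each), and Hmga2 most like Uxs1 (0.90) and Rassf3 (0.89).

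Per kilobase of exon, Igf2bp1 was the highest of the 9 genes in WT, at 56.8 ± 18.7 CPM per kb (SD, n = 3), followed by Igf2bp2 (31.0 ± 5.36), Igf2bp3 (23.9 ± 2.80), Hmga2 (13.6 ± 2.17) and Casz1 (9.93 ± 3.96). Nfib (6.39 ± 4.11), Lin28b (6.14 ± 1.22), Nfia (4.49 ± 3.20) and Nfix (1.76 ± 1.59) came last. Hmga2 and Casz1, Casz1 and Nfib, and Nfib, Lin28b and Nfia lay within the larger of their SDs of each other, while Nfix lay below Nfib and Lin28b by more than that. In DKO, Lin28b stood at 9.00 ± 0.21 CPM per kb, above Casz1 (7.47 ± 0.88) and Nfib (5.56 ± 1.08), with Nfia at 1.71 ± 0.66 and Nfix at 0.66 ± 0.47. Igf2bp3 (29.0 ± 1.85) and Igf2bp2 (28.9 ± 0.99) were level there. These orders are of levels and were not tested between genes. Lin28b and Hmga2 lie on chromosome 10 (45376620 to 45486395 and 120361275 to 120476469, both on the minus strand, GRCm38). Nfia (97772734 to 98118874), Nfib (82290173 to 82705750) and Casz1 (148804429 to 148954889) lie on chromosome 4, and Nfix on chromosome 8 (84699876 to 84800344).

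Of all 13292 tested genes, 1.29% were called in DKO against WT (87 higher and 85 lower), the share to set beside the list counts that follow. In the let-7 and Lin28 pathway outside the 9 genes, 0 of 27 tested genes rose and 1 fell in DKO against WT, with a median log2 fold change of -0.03. The list joins the let-7 processing enzymes with let-7 targets and RNA-binding partners. The gene that fell was Arid3a, a DNA-binding factor of the let-7 target class, with 32.2, 37.4 and 33.5 CPM in DKO and 58.3, 88.3 and 91.9 CPM in WT. Its log2 fold change was -1.21 ± 0.23 (adjusted p = 0.0402, edgeR), and the call was lost in 5 of the 6 fits that left out 1 DKO or WT library. Next by p came Ccnd1, the main D cyclin of retinal progenitors (-2.27 ± 0.53, adjusted p = 0.0840, edgeR, but 0.00386 by DESeq2), and Igf2, a growth factor whose mRNA the IGF2BP proteins bind (-1.28 ± 0.53, adjusted p = 0.345, edgeR). Igf2 turned to 0.12 with the mesenchyme covariate, and the cause was not tested. Lin28a, the paralog of Lin28b, was at 3.48 to 12.998 CPM over all libraries and differed by -0.35 ± 0.48.

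Of 15 other early competence genes, 0 rose and 0 fell, with a median of -0.09. The 3 with the smallest p were Foxp1 (-0.52 ± 0.18, adjusted p = 0.227), a forkhead factor, Sfrp2 (-0.99 ± 0.40, adjusted p = 0.317), a secreted Wnt modulator, and Pou2f1 (0.40 ± 0.20, adjusted p = 0.467), a POU factor tied to early competence, all by edgeR. Prtg, an early progenitor receptor and let-7 target, stood at 75.5 to 76.96 CPM in the 3 DKO libraries and 55.4 to 105 CPM in WT, and differed by -0.03 ± 0.19.

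Of 21 other late competence and gliogenic genes, 0 rose and 1 fell in DKO, with a median of -0.55 beside -0.004 over all genes. The gene that fell was Sox8, a SoxE factor of glia and glial precursors, which had 0.74, 2.07 and 3.65 CPM in DKO and 10.3, 16.1 and 11.1 CPM in WT. All Six3KO (9.38 to 11.8 CPM) and Six6KO (10.8 to 16.6 CPM) libraries also lay above DKO. The share of all genes separated downward in this way is not given here, and upward it was 4.21%. The log2 fold change from WT was -2.53 ± 0.46 (adjusted p = 0.0381, edgeR), and the call was lost in 5 of the 6 fits without 1 DKO or WT library and in the fit on DKO and WT alone (adjusted p = 0.0695, edgeR). Aldh1l1, a folate enzyme used as an astrocyte marker, had 38.1, 45.2 and 14.1 CPM in DKO against 7.502, 7.63 and 2.55 CPM in WT. Its DKO libraries lay above WT without overlap, as 9.03% of all genes did. Aldh1l1 missed the threshold (2.45 ± 0.50, adjusted p = 0.0518, edgeR). It passed with library totals as the only scaling (adjusted p = 0.0492, edgeR), by DESeq2 (8.3e-05), with the endothelial or pigment covariate (0.0223 and 0.0260) and without DKO rh021 (0.0177), so the count of 0 that rose rests on the settings. Slc1a3, the glial glutamate transporter also made by progenitors, had 35.9, 25.2 and 52.9 CPM in DKO against 111, 147 and 68.4 CPM in WT (-1.52 ± 0.35, adjusted p = 0.0803, edgeR, but 0.000589 by DESeq2). These 3 genes did not share a direction.

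Of 11 genes for Casz1 partners and the Polycomb and deacetylase complexes it works with, 0 rose and 0 fell, with a median of 0.01. Chd3, a chromatin remodeller (-0.75 ± 0.29, adjusted p = 0.286, edgeR), Ring1, a Polycomb ligase (0.47 ± 0.19, adjusted p = 0.310, edgeR), and Hdac1, a histone deacetylase (0.47 ± 0.36, adjusted p = 0.696, edgeR), had the smallest p. In DKO against Six3KO, in DKO against Six6KO and in either single mutant against WT, no gene of these 4 lists was called. The shares of all genes called there were 0.587%, 0.233%, 0.00752% (Six3KO) and 0% (Six6KO).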

How the data were processed

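The deposited values are raw counts of reads for each gene, as the authors made them. Per the submitters' processing notes, HTSeq 0.6.1 did the counting on mm10 alignments from TopHat2 2.0.13, after trimming by Trim Galore 0.3.7. No annotation or strand setting was given in the sources used here. Libraries were not matched to replicate numbers, since the columns carry only the group and a library name. Counts were fitted in R 4.3.3 with edgeR 4.0.16 (quasi-likelihood, robust, TMM scaling, filterByExpr with a minimum count of 10, 13292 genes kept), with all 11 libraries in 1 fit and a mean per group. Benjamini-Hochberg adjustment ran over all genes tested, and tests were two-sided. Standard errors are the log2 fold change divided by the square root of F. Scores are means of log2 CPM (prior count 2). Libraries of a group differed by more than sampling noise (chi-square per degree of freedom of 9.58 to 76.8). In simulated counts for DKO against WT (13253 to 13266 genes), 7.33% of genes changed 1.5-fold were called, 49.3% at 2-fold and 84.7% at 4-fold. These shares are averages over genes picked at random, with noise drawn independently for each gene. They do not give the rate for single genes of wide error such as Nfia, Nfib and Nfix (SE of 0.85, 0.67 and 1.22). Genes named from lists are the 3 of lowest p for DKO against WT, and those named for likeness are the 2 with the highest r among genes of at least 5 CPM on average; Lin28a, Prtg and Mir99ahg were added after their values were seen. The members and lists were chosen with earlier results of these data known. Alternatives were size factors by relative log expression, library totals only, no filter on low counts, DESeq2 1.42.0, the mesenchyme score (and, after seeing the data, the endothelial and pigment epithelium scores) as a covariate, only the groups being compared, and leave-one-out fits.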

Additional observations from a re-analysis of the deposited data

How the results depend on the processing

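No paired analysis was possible because the columns carry no replicate numbers. Of 828 values of the 9 genes under the alternatives, 699 kept their direction, 129 reversed it and 3 passed the threshold. In DKO against WT, 1 member was called by DESeq2 (Lin28b) and 1 with the mesenchyme covariate (Nfix, in a fit that called 136 genes higher and 97 lower). In DKO against Six6KO, 1 was called in the fit on those groups alone (Nfia, -1.72, adjusted p = 0.0233, edgeR). With the mesenchyme covariate, these values turned in DKO against WT: Hmga2 to 0.38, Nfia to 1.39, Nfib to 1.66, Nfix to 2.89, Igf2 to 0.12 and Chd3 to 0.0064. Nfia, Nfib and Nfix turned to 1.45, 1.78 and 2.93 against Six3KO, and to 1.56, 1.88 and 2.87 against Six6KO. With the endothelial and the pigment epithelium covariate, both chosen after seeing the data, Hmga2 turned to 0.076 and 0.062, Nfib to 0.38 and 0.47 and Nfix to 0.22 and 0.21 in DKO against WT, and Nfib to 0.30 and 0.25 against Six3KO and to 0.55 and 0.46 against Six6KO. The cause was not tested. Ccnd1, Slc1a3 and Aldh1l1 passed the threshold with both of these covariates and by DESeq2, and Ccnd1 and Slc1a3 with the mesenchyme covariate (adjusted p = 0.0366 and 0.0340, edgeR). Leaving out each library of the groups compared in turn, DKO against WT ranged from -0.19 to 0.080 for Hmga2, -0.39 to 0.037 for Igf2bp1 and -0.54 to 0.44 for Nfib (above 0 without WT rh016). DKO against Six3KO ranged from -0.98 to 0.73 for Nfib (0.73 without Six3KO rh026, and 0.73 without it and Six6KO rh020, an alternative chosen after seeing the data). Lin28b against WT ranged from -0.028 to 0.25 in Six3KO and -0.080 to 0.19 in Six6KO. Without 1 Six6KO library the other is assumed to vary like the other groups. The count over all genes called in DKO against WT was 172, from 20 (without DKO rh010) to 279 (without Six3KO rh026) over the fits without 1 of the 11 libraries, 773 by DESeq2, 283 without rh026 and rh020, and 673 and 506 with the endothelial and pigment epithelium covariates. In DKO against Six3KO it was 78, with 16 to 93, 774, 37, 517 and 369 in the same order. In DKO against Six6KO it was 31, with 1 to 77, 671, 4, 125 and 98, and 682 on those groups alone and 2 with the mesenchyme covariate; Six6KO against WT had 10 on those groups alone.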

Other observations

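Mir99ahg, the host transcript of the locus that holds let-7c-1 and miR-125b-2, was looked at after its values were seen. It had 46.9, 55.9 and 28.5 CPM in DKO, 20.0, 10.9 and 23.1 CPM in WT, 14.1, 10.9 and 37.4 CPM in Six3KO, and 14.7 and 32.6 CPM in Six6KO. DKO lay above WT without overlap, as 9.03% of genes did, and overlapped with Six3KO and Six6KO. The log2 fold change of DKO against WT was 1.28 ± 0.51 (adjusted p = 0.315, edgeR), so the difference did not pass the test. The other let-7 genes tested differed by 0.10 ± 0.43 (Mirlet7d) and -0.46 ± 1.48 (Mirlet7f-1), and Mirlet7e was below the filter on low counts. Levels of mature let-7 were not analysed here.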
